A study of Mus musculus with 8 samples.

Results

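The genes described here are the 7 α-defensin (Defa) genes with the most counts assigned to them in libraries of mouse Paneth cells (PCs), namely Defa24, Defa30, Defa38, Defa39, Defa21, Defa22 and Defa29. They were selected on measured values, as the Defa genes that ranked among the top 20 genes by mean share of counts over 8 libraries, which gave 7 of the 28 protein-coding Defa genes and 7 of the 55414 genes in the count table. The ranking is one of assigned counts, and copies with little sequence of their own may rank too low in it. Bulk RNA-seq was done on PCs of the small intestine that were purified by fluorescence-activated cell sorting, with 1 library per sample. The mice were of the C57BL/6J strain by the published methods, and the labels name no genetic modification. In the water group (n = 4) the drinking water was Milli-Q water, which is purified laboratory water, and in the zinc group (n = 4) it was supplemented with 25 mM zinc sulfate, in both for 7 days. All 8 mice then received an injection of tumor necrosis factor (TNF), an inflammatory cytokine, 3 hours before sampling, so the design holds no library without TNF. Libraries are named by group and replicate number, for example water 3.

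PCs are found at the bottom of the intestinal crypts, where they store antimicrobial peptides in granules, and release them into the crypt lumen, and α-defensins are the main class among these peptides. An α-defensin is made as a precursor with a signal peptide and a pro-segment, and in the mouse intestine the pro-segment is removed by matrilysin (Mmp7). The mature cationic peptide disrupts bacterial membranes. The mouse genes are tandem copies in a single cluster and have a small first exon, which codes for the signal peptide and most of the pro-segment, and a second exon, which codes for the mature peptide. PC granules are also rich in zinc, so the comparison asks whether zinc in the drinking water alters PC expression in mice that received TNF.

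The 7 genes fell into 3 groups by sequence. On GRCm39 with the GENCODE M39 annotation, all 28 protein-coding Defa genes lay on chromosome 8 between 21515557 and 22225490, 23 on the plus strand and 5 on the minus strand. Defa21 (21515557 to 21516533), Defa30 (21609255 to 21625621), Defa22 (21652290 to 21653265) and Defa24 (22224506 to 22225490) were plus-strand genes with a coding sequence of 282 bases, of which 110 were in the second exon. Defa38 (21584982 to 21586111), Defa29 (21815903 to 21817036) and Defa39 (22192531 to 22200234) were minus-strand genes with a coding sequence of 351 bases, of which 179 were in the second exon. RefSeq lists these 3 under synonyms of the cryptdin-related sequences, a branch of the family whose second exon differs from that of the other α-defensins. The groups were not neighbours on the chromosome: Defa38 and Defa30 lay between Defa21 and Defa22, and Defa24 lay at the far end of the cluster.

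The coding parts of the second exon are shown for the plus-strand genes because they carry the difference between Defa24 and Defa30 on the one side and Defa21 and Defa22 on the other. Capitals in Defa30 and Defa21 mark bases that differ from the aligned Defa24 base or face a gap in it, and capitals in Defa22 mark those that differ from Defa21. All sequences run 5′ to 3′ on the coding strand of GRCm39. The positions are chr8:22225284-22225393 (plus strand) for Defa24, chr8:21625410-21625519 (plus strand) for Defa30, chr8:21516330-21516439 (plus strand) for Defa21 and chr8:21653062-21653171 (plus strand) for Defa22.
Defa24: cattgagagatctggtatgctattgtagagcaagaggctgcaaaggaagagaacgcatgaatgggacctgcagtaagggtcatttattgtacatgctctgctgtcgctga
Defa30: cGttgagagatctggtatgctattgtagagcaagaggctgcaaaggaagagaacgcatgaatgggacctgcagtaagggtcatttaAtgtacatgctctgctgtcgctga
Defa21: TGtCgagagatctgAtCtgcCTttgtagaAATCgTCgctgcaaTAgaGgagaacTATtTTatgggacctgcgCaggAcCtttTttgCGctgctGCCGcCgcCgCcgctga
Defa22: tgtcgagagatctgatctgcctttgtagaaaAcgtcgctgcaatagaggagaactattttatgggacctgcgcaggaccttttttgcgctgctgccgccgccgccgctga

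Defa24 and Defa30 were identical at 98.6% of aligned coding positions and differed at 4 of 282 bases, 2 of them in the stretch shown. Defa21 and Defa22 were identical at 99.3% and differed at 2 of 282 bases, 1 of them in the stretch shown. Between these pairs the second exon differed more than the first: Defa24 and Defa21 shared 90.1% of aligned positions in the first coding exon and 66.7% in the second.

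The same part of the minus-strand genes is shown with capitals in Defa39 and Defa29 for bases that differ from Defa38. The positions are chr8:21585090-21585268 (minus strand) for Defa38, chr8:22192644-22192822 (minus strand) for Defa39 and chr8:21816015-21816193 (minus strand) for Defa29.
Defa38: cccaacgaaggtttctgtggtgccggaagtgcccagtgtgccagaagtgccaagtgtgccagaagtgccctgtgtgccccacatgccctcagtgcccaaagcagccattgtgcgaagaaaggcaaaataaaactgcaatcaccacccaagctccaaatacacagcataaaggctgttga
Defa39: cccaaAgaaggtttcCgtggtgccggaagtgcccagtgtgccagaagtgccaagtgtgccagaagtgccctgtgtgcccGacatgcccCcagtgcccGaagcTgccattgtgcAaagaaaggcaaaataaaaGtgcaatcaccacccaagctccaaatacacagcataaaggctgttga
Defa29: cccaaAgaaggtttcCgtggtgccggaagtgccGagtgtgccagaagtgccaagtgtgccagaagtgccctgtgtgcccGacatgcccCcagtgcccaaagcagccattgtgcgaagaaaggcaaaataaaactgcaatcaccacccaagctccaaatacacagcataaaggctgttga

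Coding identity among Defa38, Defa39 and Defa29 was 96.6% to 97.4%. Against the 4 plus-strand genes their first coding exon was 88.4% to 93.6% identical and their second 35.2% to 39.4% identical.

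The 120 bases before the annotated transcript start are shown because the copies also differed there in a short motif, and their transcript levels are the subject of what follows. Capitals mark TATAAA, the core of a TATA box, and CTTTGAT or its reverse complement ATCAAAG, letters bound by the TCF/LEF factors of the Wnt pathway. Both strands were searched, and the 2 motifs overlapped nowhere in these stretches. The windows are chr8:22224386-22224505 (plus strand) for Defa24, chr8:21624513-21624632 (plus strand) for Defa30, chr8:21515437-21515556 (plus strand) for Defa21, chr8:21652170-21652289 (plus strand) for Defa22, chr8:21586112-21586231 (minus strand) for Defa38, chr8:22193664-22193783 (minus strand) for Defa39 and chr8:21817037-21817156 (minus strand) for Defa29.
Defa24: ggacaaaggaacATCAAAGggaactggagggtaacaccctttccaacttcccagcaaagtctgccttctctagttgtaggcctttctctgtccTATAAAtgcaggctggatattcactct
Defa30: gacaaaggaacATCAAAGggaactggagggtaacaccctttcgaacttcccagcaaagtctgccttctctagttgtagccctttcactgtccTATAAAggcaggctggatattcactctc
Defa21: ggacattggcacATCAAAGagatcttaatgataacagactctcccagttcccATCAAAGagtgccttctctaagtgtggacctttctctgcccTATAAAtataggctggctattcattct
Defa22: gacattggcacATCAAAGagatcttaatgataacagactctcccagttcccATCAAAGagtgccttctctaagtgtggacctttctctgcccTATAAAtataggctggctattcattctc
Defa38: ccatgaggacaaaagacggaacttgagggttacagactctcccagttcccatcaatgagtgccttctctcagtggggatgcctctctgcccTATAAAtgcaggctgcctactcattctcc
Defa39: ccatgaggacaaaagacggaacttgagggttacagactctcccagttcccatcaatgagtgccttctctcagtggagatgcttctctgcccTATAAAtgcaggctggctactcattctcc
Defa29: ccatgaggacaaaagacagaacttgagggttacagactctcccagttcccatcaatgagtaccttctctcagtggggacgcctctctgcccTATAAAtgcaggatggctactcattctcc

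TATAAA stood in all 7 windows, starting 27 to 29 bases before the transcript start, while 6.21% of 21770 promoter windows of the same length held it, 1 for each protein-coding gene. Of the 21 other Defa genes 16 held it, so it was not particular to the 7. CTTTGAT was found in 4 of the 7, in Defa24 and Defa30 once, 108 and 109 bases before the start, and in Defa21 and Defa22 at 2 places, with the second match 68 and 69 bases before the start. The minus-strand genes had no match to these letters in the window. Of all promoter windows 1.19% held the motif, as did 18 of the 21 other Defa genes. Over 250 bases before the start, identity was 95.2% to 99.2% within the 3 groups and 70.9% to 78.5% between them. These are matches of letters, and binding was not measured.

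How far a single copy can be counted depends on the sequence that it does not share. The reference transcript of each gene was cut into all words of 75 consecutive bases. A word was called unique if it occurred at no other place of the genome on either strand and in no transcript of another gene. Unique words made up 93.4% of the Defa24 transcript, 86.6% of Defa39, 81.2% of Defa30, 69.6% of Defa29 and 69.0% of Defa38. For Defa21 and Defa22 the shares were 43.2% and 43.5%, since Defa22 held 56.8% of the Defa21 words. Defa38 and Defa29 held about 30.2% to 31.0% of each other's words, whereas Defa29 held none of the Defa39 words and Defa38 held 26 of them. Counts of Defa21 and Defa22, and of Defa38 and Defa29, may thus be divided between the pair by the way in which reads with several matches were treated, which no source used here gives, and their ratios are uncertain for that reason.

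**Figure D1:**
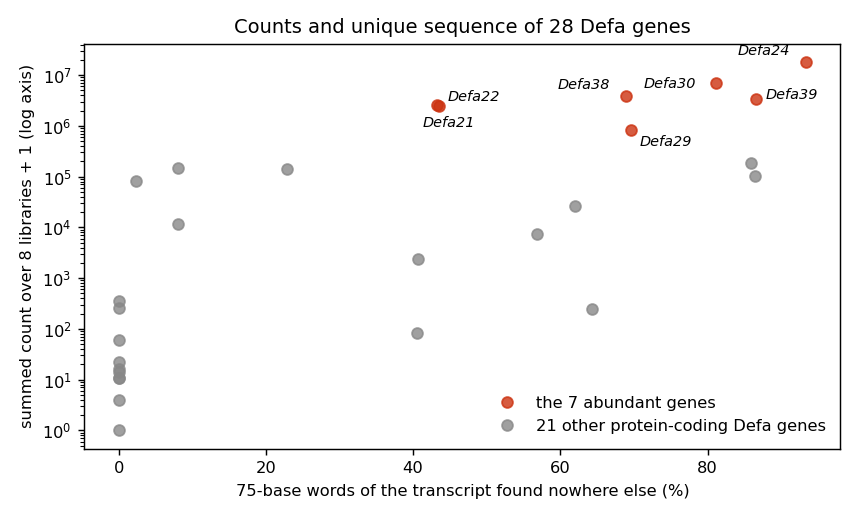
Summed count over the 8 libraries plus 1 (log axis) against the share of 75-base words of the reference transcript that occur nowhere else, for 28 protein-coding Defa genes. The 7 abundant genes (red) lie above all others at 43.2% to 93.4% unique words, and the 10 genes with 0 unique words have summed counts of 0 to 350.

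Over the whole family, 10 of the 28 genes had no unique word in their reference transcript. Their counts summed over all libraries ran from 0 for Defa33 to 350 for Defa42. The other 18 genes had summed counts of 81 to 17775072. On the reference transcripts, low expression of those 10 genes cannot be told apart from reads that matched several copies and were not counted. With the longest model of each gene, Defa32, Defa33 and Defa37 still had no unique word, and Defa2 and Defa20 had 1 each. Defa31, Defa23, Defa36, Defa42 and Defa43 had 66 to 75 unique words in that model.

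Library totals ran from 10623658 to 15101627 counts. The 7 genes together had 3956842 to 5689063 counts per library, 98.1% to 98.3% of all counts assigned to protein-coding Defa genes. This is not their share of Defa expression, since copies with little or no sequence of their own may be counted too low. The widest 95% Wilson interval of a gene's share in a library spanned 0.049 percentage points, which covers counting error only. As to purity, the 9 markers of PCs summed to 448033 to 557337 CPM (the count divided by the library total, times 1000000) on plain totals. That list includes Defa24 and Defa30, chosen here for their level, which took 21.3% to 30.5% of all counts. The 12 markers of enterocytes summed to 21.5 to 71.6 CPM in 7 libraries and to 238 CPM in zinc 3. The 16 markers of immune and stromal cells summed to 44.7 to 102 CPM, with Adgre1, S100a8, Col1a1, Col3a1, Cdh5 and Acta2 at 0 in every library. For goblet cells (12 markers) the sums were 10581 to 16377 CPM, for crypt stem cells (10) 412 to 1283 CPM and for enteroendocrine and tuft cells (10) 1.30 to 17.8 CPM. Of the libraries, 3 stood apart, and results are given without them where that changes what is seen. In zinc 3 the list of 18 response genes of TNF and NF-kB summed to 166 CPM, against 1443 to 2184 CPM in the other 7 libraries. In water 3 and water 4 the deviation of a gene from its mean over libraries fell with transcript length (Spearman rho −0.25 and −0.26 over 9433 genes, which are not independent), while rho was 0.01 to 0.22 in the other libraries. The part of these features in the results was not tested.

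The 7 genes held 34.7%, 33.4%, 44.0% and 40.6% of all counts in water 1 to 4. In zinc 1 to 4 they held 37.2%, 33.9%, 38.8% and 36.0%. Water 3 and water 4 were the highest libraries, and the zinc values lay inside the range of the water values. The mean share was 1.68 percentage points lower with zinc, which was not a detectable difference (two-sided exact permutation test over 70 assignments, p = 0.571, n = 4 and 4). Without water 3 the difference was 0.26 points in the other direction (exact permutation p = 0.886), and without water 3 and 4 it was 2.44 points in that direction (exact permutation p = 0.267). Without zinc 3 it was −2.45 points (exact permutation p = 0.457). In bulk samples, fewer PCs in a sort and less defensin RNA per PC cannot be told apart.

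Defa24 had the highest mean share of counts of any gene. It held 16.2%, 15.6%, 21.3% and 19.4% of counts in water 1 to 4, and 17.6%, 15.5%, 17.9% and 16.6% in zinc 1 to 4. Defa30, its nearest copy, held 6.40%, 5.89%, 9.16% and 7.34% with water and 7.29%, 5.84%, 7.53% and 6.17% with zinc. For both genes water 3 was highest and the groups overlapped.

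Defa38 held 3.34%, 3.40%, 4.47% and 3.81% of counts with water and 4.13%, 3.34%, 4.65% and 3.52% with zinc. Defa39 held 2.92%, 2.88%, 4.70% and 3.28% with water and 3.38%, 2.71%, 4.18% and 2.75% with zinc. Both were high in water 3 and zinc 3. Defa29, the least abundant of the 7, held 0.848%, 0.828%, 0.748% and 0.729% with water and 0.773%, 0.874%, 0.786% and 0.907% with zinc, and it was lowest in water 4 and water 3, the libraries in which Defa24 was highest.

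Defa21 held 2.49%, 2.41%, 1.83% and 3.12% of counts in water 1 to 4 and 2.07%, 2.88%, 1.88% and 3.05% in zinc 1 to 4. Defa22 held 2.45%, 2.33%, 1.76% and 2.88% with water and 2.02%, 2.79%, 1.81% and 2.99% with zinc. Both were lowest in water 3, zinc 3 and zinc 1, in each of which Defa24 and Defa30 were above their values in water 1 and water 2. Water 4 went the other way, with Defa24 and Defa30 above those values and Defa21 at its highest. The 7 genes were chosen for these shares, so the order of their levels is a description. At the threshold of the choice, Defa29 was the last Defa gene inside with a mean share of 0.812% (rank 10), and Defa26 was the first outside with 0.185% (rank 22). The genes at ranks 20 and 21 were Pigr, the receptor that carries polymeric immunoglobulin across the epithelium, with 0.213%, and Reg4, a secreted lectin, with 0.212%.

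**Figure D2:**
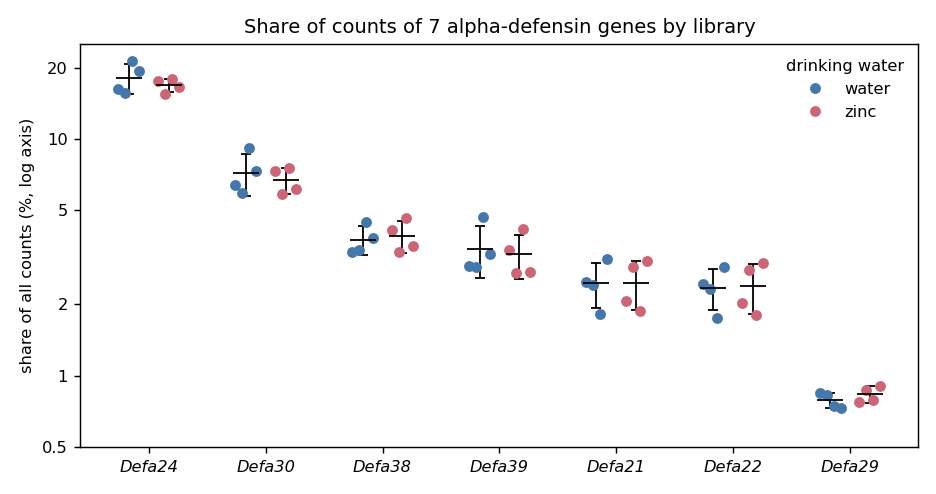
Share of all counts (%, log axis) of each of the 7 genes in the 4 water (blue) and 4 zinc (red) libraries, with the mean and SD of each group in black. Points of a group run from replicate 1 to 4, left to right, and the 2 groups overlap for every gene.

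Levels between genes were compared per length. Per kilobase of annotated exons, Defa24 had 407421 ± 46909 CPM (SD, n = 8), Defa30 130453 ± 20966 and Defa29 15977 ± 1239. Defa38, Defa21, Defa39 and Defa22 lay between 55833 and 64430 CPM per kilobase, and each neighbouring pair of these 4 kept its order in only 3 to 5 of 8 libraries. Counted per unique position of the transcript, a scale that allows for shared sequence only if reads with several matches were left uncounted, the order was Defa24 (539 ± 62.1 CPM per position), Defa30 (241 ± 38.7), Defa38 (201 ± 27.6), Defa21 (164 ± 34.3), Defa22 (159 ± 32.2), Defa39 (89.3 ± 19.4) and Defa29 (26.9 ± 2.08). Defa24 was above Defa30 and Defa39 above Defa29 in 8 of 8 libraries on that scale, with no overlap of their ranges, whereas Defa38 was above Defa21 in 5 of 8. The reference transcript of Defa38 holds coding bases only. With the longest model of each gene, Defa38 fell from the third to the fifth place with 110 ± 15.2 CPM per position, below Defa21 and Defa22. Of the other Defa genes, Defa5 had 11496 counts per unique position over all libraries, above Defa39 (9018) and Defa29 (2745), and Defa17 had 5296, above Defa29, but these rest on transcripts of which 2.32% and 8.07% are unique. Among the 7, the highest gene was above the lowest by 20.3 ± 3.77-fold per unique position (mean and SD of 8 libraries) and by 25.8 ± 4.79-fold per kilobase.

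Ratios between copies do not depend on the library total or on any scaling, and they are given within each library. The Defa24 to Defa30 ratio was 2.53, 2.65, 2.33 and 2.65 in water 1 to 4 and 2.41, 2.65, 2.38 and 2.69 in zinc 1 to 4, so that its highest value was 1.16 times its lowest. The Defa21 to Defa22 ratio was 1.02, 1.04, 1.04 and 1.08 with water and 1.03, 1.03, 1.04 and 1.02 with zinc, with a highest value of 1.06 times the lowest. The counts of both pairs thus kept similar proportions across mice, though not fixed ones. The SD of the log2 ratio was 0.083 for Defa24 over Defa30 and 0.028 for Defa21 over Defa22. Counting error alone would give 0.0018 and 0.0038. The lowest Defa24 to Defa30 ratios were those of water 3, zinc 3 and zinc 1. Defa22 holds 56.8% of the Defa21 words, and a division of shared reads between the 2 copies would also hold their ratio steady, which was not tested.

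Many proportions between the groups varied more. The ratios of Defa24, Defa30, Defa38 and Defa39 to Defa21 or Defa22 had a highest value of 2.14 to 2.90 times the lowest, and those of Defa29 to genes of the other groups one of 1.61 to 1.83 times. The Defa39 to Defa22 ratio was 1.19, 1.24, 2.67 and 1.14 in water 1 to 4 and 1.68, 0.97, 2.31 and 0.92 in zinc 1 to 4. The Defa24 to Defa21 ratio was 6.51, 6.49, 11.7 and 6.23 with water and 8.48, 5.36, 9.54 and 5.45 with zinc. In both, water 3, zinc 3 and zinc 1 were the high libraries, in that order. Summed by sequence group, Defa21 and Defa22 had 21.9, 22.0, 11.8 and 22.4 counts per 100 counts of Defa24 and Defa30 in water 1 to 4, and 16.5, 26.6, 14.5 and 26.5 in zinc 1 to 4. The 3 low libraries had at most 16.5 and the other 5 at least 21.9, and both sets held water and zinc mice. The enterocyte markers summed to 71.6 CPM in zinc 1 and 238 CPM in zinc 3, against 21.5 to 54.80 CPM in the 5 libraries with higher ratios. In water 3, the library with the lowest ratio, they summed to 54.97 CPM, close to 54.80 CPM in water 1. Total counts of the 3 low libraries were 10733407 (water 3), 10623658 (zinc 1) and 13167276 (zinc 3). Their crypt stem cell markers had 490, 1151 and 1283 CPM against 412 to 934 CPM in the other 5, and only zinc 3 had the low TNF list. The part of these values in the low ratio was not tested.

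Sequence group and constancy of the ratio did not go together throughout. Defa38 and Defa39 kept a ratio of 0.95 to 1.28, and their ratios to Defa30, from another group, were as narrow: 1.62 to 2.05 for Defa30 over Defa38 and 1.80 to 2.24 for Defa30 over Defa39. Against Defa29, which is 96.6% identical to Defa39 in its coding sequence, the Defa39 ratio ran from 3.03 in zinc 4 to 6.28 in water 3. Over the 5 pairs within a sequence group the highest ratio was 1.06 to 2.07 times the lowest, and over the 16 pairs between groups 1.25 to 2.90 times. The pairs share genes and libraries, and no test was made of this difference.

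**Figure D3:**
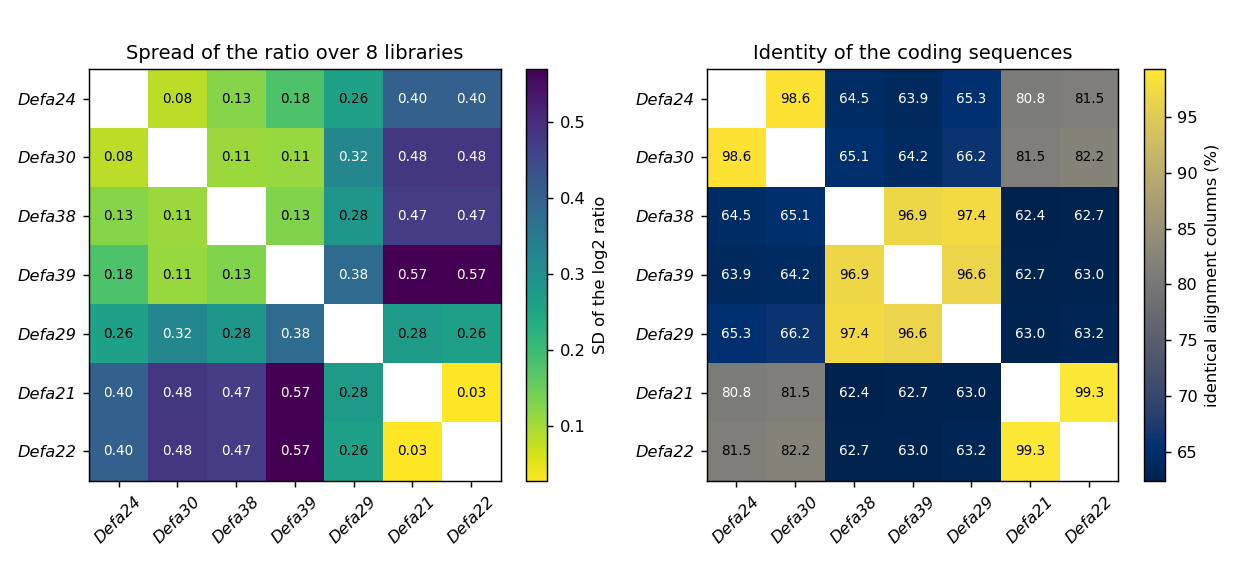
For each pair of the 7 genes, the SD over 8 libraries of the log2 ratio of their counts (left) and the identity of their coding sequences in % of alignment columns (right). Defa21 and Defa22 have the lowest SD (0.03) and the highest identity (99.3%), whereas Defa39 and Defa29 have an SD of 0.38 at an identity of 96.6%. Reads shared by Defa21 and Defa22 may be divided between them in a way that is not known.

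**Figure D4:**
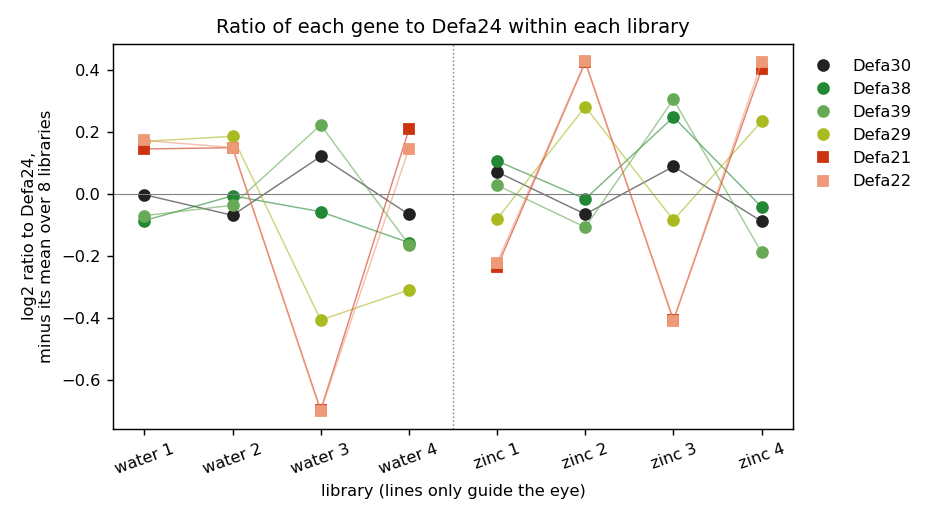
Log2 ratio of each of 6 genes to Defa24 in each library, centred on its mean over the 8 libraries. Defa21 and Defa22 (squares) lie on top of each other, low in water 3, zinc 1 and zinc 3, and Defa30, Defa38 and Defa39 (black and green) stay within about 0.3 of their mean.

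Zinc did not detectably shift any ratio. Over the 21 pairs, two-sided exact permutation tests gave p from 0.0857 to 0.971, and 0 of 21 had an adjusted p below 0.05 (smallest adjusted p 0.971). The lowest p was that of Defa24 over Defa38, with a mean log2 ratio of 2.27 ± 0.063 (SD, n = 4) with water and 2.12 ± 0.13 (SD, n = 4) with zinc, a difference of −0.15 (exact permutation p = 0.0857). With 4 against 4 the smallest p of this test is 0.0286 before adjustment. A shift of a single ratio or of a few could therefore not pass 0.05 after adjustment over the 21 pairs. The same holds for the share of a single gene after adjustment over the 7 genes. As a share of the sum of the 7 genes, Defa24 made up 47.5% ± 0.82 (SD, n = 4) with water and 46.3% ± 0.65 (SD, n = 4) with zinc (exact permutation p = 0.0857, adjusted over 7 genes 0.60), and the other 6 genes had an unadjusted exact permutation p of 0.229 to 0.971.

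Co-variation across the 8 mice was measured on log2 CPM after scaling with trimmed means of M-values (TMM), with Pearson's r and Spearman's rho, exact permutation p-values over all 40320 pairings and Benjamini-Hochberg adjustment over the 21 pairs. Of these, 7 pairs had an adjusted p below 0.05, by either coefficient and all with positive r. They were the 6 pairs among Defa24, Defa30, Defa38 and Defa39, with r from 0.93 (Defa24 and Defa39, rho 0.86, adjusted exact permutation p = 0.00625) to 0.98 (Defa24 and Defa30, rho 0.98, adjusted exact permutation p = 0.00069), and Defa21 with Defa22 (r = 0.997, rho 1.00, adjusted exact permutation p = 0.00026). Between those 2 sets r ran from −0.11 to 0.28, and none of these 8 pairs passed. Defa29 had r of 0.52 to 0.73 with the other genes and passed in no pair. The r of Defa21 with Defa22 has the same limit as their ratio, since shared reads may be divided between them.

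Without the 2 libraries farthest from the median of the first gene of a pair, r was 0.87 to 1.00 for 6 of the 7 pairs. For Defa24 and Defa39 it was 0.78 without water 3 and 4 (exact permutation p = 0.0708, n = 6). Without water 3 and 4 throughout, the 7 pairs kept r of 0.78 to 1.00, and 2 of 21 pairs had an adjusted p below 0.05 among 6 libraries. The calls depended on the scaling. On plain library totals 11 of 21 pairs passed by Pearson's r, 6 with positive and 5 with negative r, while by Spearman's rho 3 passed, Defa24 with Defa30, Defa30 with Defa39 and Defa21 with Defa22. Defa24 with Defa38 no longer passed (r = 0.76, adjusted exact permutation p = 0.0504). The 6 with positive r were Defa24 with Defa30 and Defa39, Defa30 with Defa38 and Defa39, Defa38 with Defa39, and Defa21 with Defa22. The 5 with negative r were Defa29 with Defa24 and Defa30, Defa39 with Defa21 and Defa22, and Defa38 with Defa22, whose r ran from −0.85 to −0.80. Defa29 with Defa24 had r = 0.73 on TMM-scaled values and −0.82 on plain totals, so no direction is given for that pair.

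Other secreted PC products followed the 7 genes to differing degrees. With the mean log2 CPM of the 7, the lysozyme gene Lyz1 had r = 0.98 (rho 0.93, exact permutation p = 0.0003, adjusted over 3 genes 0.00089, n = 8), Mmp7 r = 0.94 (rho 0.86, exact permutation p = 0.00077, adjusted 0.0012, n = 8) and the intelectin gene Itln1 r = 0.76 (rho 0.79, exact permutation p = 0.0302, adjusted 0.0302, n = 8). Without water 3 and 4, r was 0.86 for Lyz1 (exact permutation p = 0.0306, n = 6), 0.75 for Mmp7 (exact permutation p = 0.0861, n = 6) and 0.75 for Itln1 (exact permutation p = 0.117, n = 6), so Mmp7 and Itln1 missed an unadjusted threshold of 0.05 among these 6 libraries. On plain totals r was 0.66, 0.56 and −0.16, respectively. Among 5896 genes outside the family with a mean of at least 10 CPM, the 5 with the highest r to that mean were Lyz1, Eif3m, a subunit of a translation initiation factor (r = 0.98), BC031181 (r = 0.97), Selenof, a selenoprotein of the endoplasmic reticulum (r = 0.97), and Bag1, a co-chaperone (r = 0.97). These r values are over 8 libraries that share 1 set of scaling factors, and they are a description.

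All 7 genes passed the filter on low counts. In the comparison of zinc with water across all genes, 0 of the 7 genes passed an adjusted p of 0.05 in edgeR's quasi-likelihood test, where 0% of 10707 genes did. At an unadjusted p below 0.05, 0 of 7 passed against 10.2% of all genes tested, and 0 of 7 had groups without overlap in CPM against 5.87%. DESeq2 called 4 of 18720 genes, none of them among the 7. All 7 estimates lay below 0 (zinc over water), with a median of −0.14 on the log2 scale beside 0.01 over all genes tested, and their sign depended on the libraries used. Markers of other cells are given for both groups, and the sums of each list overlapped between them. Of the crypt stem cell markers 9 were tested and all 9 estimates lay above 0 (median 0.96), with 0 called and 4 at an unadjusted p below 0.05, and the list summed to 412 to 703 CPM with water and 520 to 1283 CPM with zinc. Goblet cell markers summed to 10581 to 12511 CPM with water and 12329 to 16377 CPM with zinc. Their estimates were split, 7 above and 5 below 0, with 0 called and 5 at an unadjusted p below 0.05. Immune and stromal markers summed to 48.0 to 102 and 44.7 to 48.9 CPM, with 48.0 CPM in water 4. Only 4 of these 16 were tested, all 4 with estimates below 0, 0 called and 3 at an unadjusted p below 0.05. Those 3 were Cd74 (log2 fold change −1.55), H2-Aa (−2.22) and H2-Ab1 (−1.09), and the other gene tested was Lyz2 (−0.07). The 7 tested enterocyte markers had estimates above 0 and the 18 genes of the TNF list below 0, with 0 called in either. In both lists zinc 3 stood apart from the other zinc libraries. The TNF list summed to 166 CPM in zinc 3. In the other zinc libraries it summed to 1664 to 1855 CPM, inside the water range of 1443 to 2184 CPM. Enterocyte markers summed to 238 CPM in zinc 3, against 21.5 to 71.6 CPM in the other zinc libraries. The part of zinc 3 in the signs of these lists was not tested. The part of all these markers in the estimates of the 7 genes was not tested.

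Defa24 had 150378, 140708, 281499 and 217785 CPM (TMM-scaled) in water 1 to 4 and 174892, 135313, 165661 and 168408 in zinc 1 to 4, a log2 fold change of −0.29 (SE 0.27, adjusted p = 0.645). Only water 3 and water 4 lay above the highest zinc value. Defa30 had a log2 fold change of −0.30 (SE 0.28, adjusted p = 0.658) with 51112 to 120972 CPM over the 8 libraries, and Defa39 one of −0.29 (SE 0.31, adjusted p = 0.696) with 23730 to 62045 CPM. The estimates of Defa21 (−0.14, SE 0.24), Defa38 (−0.13, SE 0.26), Defa22 (−0.12, SE 0.24) and Defa29 (−0.07, SE 0.18) were smaller, with adjusted p of 0.825 to 0.886. Without water 3 and 4 all 7 were above 0, from 0.05 for Defa29 to 0.26 for Defa38, again with no gene past the threshold. Without zinc 3 they ran from −0.41 to 0.01.

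**Figure D5:**
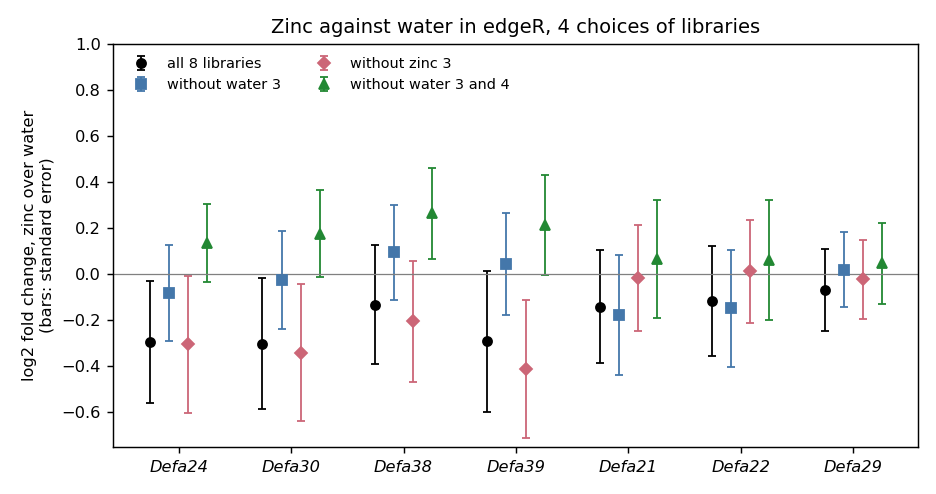
Log2 fold change, zinc over water, of each gene in edgeR with its standard error, from all 8 libraries and without the libraries named in the legend. Estimates lie below 0 with all libraries (−0.30 to −0.07) and above 0 without water 3 and 4 (0.05 to 0.26), and no gene passed the threshold in any of them.

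Other genes of the defensin pathway gave the same count of calls. Of the 21 other protein-coding Defa genes 13 were tested, 4 above and 9 below 0, with 0 called and a median log2 fold change of −0.25. Among them, Defa26 had −0.30 (SE 0.25, adjusted p = 0.626 in edgeR). Of 19 other PC granule products 16 were tested, 6 above and 10 below 0, with 0 called and a median of −0.12. At an unadjusted p below 0.05 there were 5 of the 16, against 10.2% of all genes tested, with the log2 fold changes of Reg3a (−1.43, SE 0.53), Reg3b (−1.37, SE 0.53), Mptx1 (−0.95, SE 0.40), Mptx2 (−0.83, SE 0.37) and Dmbt1 (1.37, SE 0.59), each with an adjusted p of 0.485 in edgeR. These 5 were singled out after their values were seen. Also in the list were Lyz1 at −0.20 (SE 0.22, adjusted p = 0.713 in edgeR) and Itln1 at 0.05 (SE 0.21, adjusted p = 0.931 in edgeR). Of 10 genes of defensin maturation and granules 7 were tested, 2 above and 5 below 0, with 0 called and a median of −0.22, and Mmp7 had −0.45 (SE 0.26, adjusted p = 0.52 in edgeR). The trypsin genes Try4, Try5 and Prss2 of that list had no count in any library. Of 17 regulators of the PC lineage and its secretory program, such as Sox9, Atoh1 and Xbp1, all were tested, 10 above and 7 below 0, with 0 called and a median of 0.15. Of these 17, 5 had an unadjusted p below 0.05 in edgeR, against 10.2% of all genes tested.

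Some minor copies shared the pattern of Defa21 and Defa22. Relative to Defa24 and Defa30, and over the 8 libraries, Defa35 had an r of 0.98 with the ratio of Defa21 and Defa22 to Defa24 and Defa30, and Defa5 an r of 0.91. The other 11 Defa genes tested had r of −0.57 to 0.50. Per 10000 counts of Defa24 and Defa30, Defa35 had 12.0, 12.1, 6.85 and 10.5 counts with water and 8.87, 14.5, 7.71 and 13.7 with zinc, low in the same 3 libraries. Its denominator is that of the ratio, so r is a description, and only 2.32% of the Defa5 words are unique. Defa35 (21555054 to 21556012, plus strand) lies between Defa21 and Defa38. Defa35 and Defa5 were singled out after their values were seen.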

How the data were processed

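PCs were sorted by the authors from 8 mice for stranded mRNA libraries. The authors deposited 1 table of raw counts per Ensembl gene, whole numbers with 1 column per sample, and it was used as deposited. The submitters' processing notes name FastQC 0.12.0, STAR 2.7.10a, DESeq2 and mm39. The counter, the annotation and the treatment of reads with several matches are not given in the sources used here. Of 55414 identifiers, 54749 matched GENCODE M39 on GRCm39, and the other 665 held 0.00443% of counts.

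Zinc was compared with water in edgeR 4.0.16 (under R 4.3.3), whose quasi-likelihood test was run after TMM scaling and the default filter, which left 10707 genes, adjusted by Benjamini and Hochberg over all of them. SE is that of the log2 fold change. Exact permutation tests, two-sided, were used for shares and ratios. Log2 CPM used a prior count of 1. Alignments were global (Biopython 1.88). The main edgeR comparison, the exact permutation test between groups and the correlation coefficients were tested on simulated data. DESeq2, limma-voom and the tests with the replicate number as a block were not. No 2 libraries agreed within sampling noise (smallest chi-square per degree of freedom 6.37).

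Always named were the 7 genes, Defa26, the genes at ranks 20 and 21, Lyz1, Itln1, Mmp7 and the 5 genes most like the mean of the 7. The 7 genes and all lists were chosen with earlier results of these data known. Replicate numbers in the labels did not pair the samples. The labels do not say whether samples of a group came from separate experiments, so p-values measure the spread between these samples. Alternatives were DESeq2 (version 1.42.0), limma-voom (version 3.58.1), other scaling factors and filters, the replicate number as a block, and libraries left out.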

Additional observations from a re-analysis of the deposited data

Results flagged for a closer look

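In a search of 58 sets of 4 libraries (the water or the zinc group, for the share of each gene, their sum and the 21 ratios), 9 had a library that stood apart from the other 3 by Dixon's criterion, where chance gives about 1 in 20, and the ratios share genes and libraries. Of the 9, 8 were water 3. Its log2 ratios of Defa24 over Defa21 and over Defa22 were 3.55 and 3.60, against 2.64 to 2.75 in the other water libraries. Its log2 ratios of Defa30 over Defa21 and over Defa22 were 2.33 and 2.38, against 1.23 to 1.38. For Defa38 over Defa22 the value was 1.35, against 0.40 to 0.55, and for Defa39 over Defa21 and over Defa22 it was 1.36 and 1.42, against 0.07 to 0.31. For Defa38 over Defa39 it was −0.070, against 0.19 to 0.24. In the zinc group, zinc 3 had a log2 ratio of Defa30 over Defa38 of 0.70, against 0.81 to 0.82.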

How the results depend on the processing

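No gene of the 7 was called under any scaling, filter, tool or left-out library. All 7 log2 fold changes turned positive without water 3 and 4: 0.14 for Defa24, 0.18 for Defa30, 0.26 for Defa38, 0.21 for Defa39, 0.066 for Defa21, 0.062 for Defa22 and 0.047 for Defa29. With single libraries left out, the log2 fold changes ran from −0.25 to 0.095 for Defa38, from −0.44 to 0.045 for Defa39 (both highest without water 3), from −0.31 to 0.038 for Defa21, from −0.29 to 0.041 for Defa22 (both highest without water 4) and from −0.15 to 0.020 for Defa29 (highest without water 3). Defa24 ran from −0.43 (without water 2) to −0.080 (without water 3) and Defa30 from −0.45 to −0.025 (the same libraries). The difference in summed share without water 3 and 4 was 2.44 points, and with single libraries left out it ran from −3.27 to 0.26 points. The count of co-varying pairs was 2 without water 3 and 4, 11 on plain totals (3 by Spearman's rho) and 6 to 8 with single libraries left out, against 7. The causes were not tested. With the replicate number as a block, 0 of the 7 genes were called. For ratios and shares, the exact permutation test within replicate numbers has too few assignments to reach a p below 0.05. That 0 of the 21 ratios were called with this block was therefore fixed in advance and decides nothing. The same holds for the summed share, which differed by −1.68 points (exact permutation p = 0.5). Same-numbered libraries did not deviate together (correlations −0.05 to 0.07). Counting of near-identical copies, 4 libraries per group and the absence of mice without TNF limit what can be read.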
